A study of Mus musculus with 24 samples.

Results

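Immediate early genes are the genes that cells transcribe first after a stimulus, before any new protein has to be made. The 10 described here are Fos, Fosb, Jun, Junb, Atf3, Egr1, Egr2, Dusp1, Ier2 and Ier3. They were the rows of the deposited count table that carried these gene symbols, 10 of 51912 genes. The table covered 24 libraries from whole mouse lungs.

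Growth factors, stretch, hormones and stress reach these genes through mitogen-activated protein kinases. The kinases act on proteins already present, such as serum response factor with its ELK partners and CREB, and the messages that result are short-lived. FOS, FOSB, JUN and JUNB pair to form the transcription factor AP-1, ATF3 is a stress-induced relative that pairs with JUN proteins, and EGR1 and EGR2 are zinc finger transcription factors. DUSP1 removes phosphates from the same kinases and so limits the response. IER3 takes part in survival signalling, and IER2 is a nuclear protein.

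The lungs carried floxed alleles of Sin3a, which encodes a scaffold that holds histone deacetylases in a corepressor, and were taken at embryonic day 16 (E16), on the day of birth (P0) and on postnatal day 3 (P3). At each stage there were 4 conditional knockout (CKO) and 4 control lungs, titled as biological replicates, and doxycycline had been fed to the dams from embryonic day 12. CKO lungs had the genotype Tbx4rtta; tetocre; Sin3a F/F at every stage, and control lungs had Tbx4rtta; tetocre; Sin3a F/+ at E16 and P0. P3 control lungs were titled F/F, like the CKO lungs of that stage, so their group rests on the words control and CKO in the labels. The Tbx4-driven transactivator is active in lung mesenchyme, so Cre is made in only part of the cells of the whole lung that was sequenced, and control lungs carried both transgenes too. In whole-lung RNA, fewer cells of a type and less RNA per cell cannot be told apart.

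Library totals ran from 27.02 to 36.35 M counts. Levels are given as CPM, counts scaled to the library total and corrected by a trimmed mean of M values (TMM). Sin3a averaged 129 ± 16.7 CPM in CKO and 133 ± 7.41 CPM in control lungs at E16, 103 ± 13.1 CPM in CKO and 95.5 ± 9.16 CPM in control lungs at P0, and 103 ± 3.5 CPM in CKO and 96.9 ± 6.05 CPM in control lungs at P3 (SD, n = 4 each). Sin3a counts cover the whole gene and all cells of the lung, also those that make no Cre, and therefore check no genotype label. All 15 lung markers were detected in every library. Thymus markers summed to 2189 CPM in P0 CKO replicate 1 and to 2740 CPM in P0 control replicate 3, and to 50.5 to 85.4 CPM in all other libraries. Cartilage markers reached 372 CPM in P0 CKO replicate 3. Xist was above 100 CPM, as in female lungs, in 4 of 4 CKO and 1 of 4 control lungs at E16, in 2 CKO and 3 control lungs at P0, and in 2 CKO and 1 control lungs at P3.

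The promoters of 5 of these genes are shown, picked from those that hold a motif searched, as serum response factor and CREB are known to act at such sites. Each stretch is the 250 bases before the transcript start, 5′ to 3′ on the gene's strand, from RefSeq promoter windows on GRCm38.p6. Capitals mark the motifs searched on both strands, namely the serum response element, the cAMP response element TGACGTCA, the shorter TGACG within it and the TATA box TATAAA. The AP-1 site TGANTCA was searched as well.
Fos, chr12:85473640-85473889, plus strand: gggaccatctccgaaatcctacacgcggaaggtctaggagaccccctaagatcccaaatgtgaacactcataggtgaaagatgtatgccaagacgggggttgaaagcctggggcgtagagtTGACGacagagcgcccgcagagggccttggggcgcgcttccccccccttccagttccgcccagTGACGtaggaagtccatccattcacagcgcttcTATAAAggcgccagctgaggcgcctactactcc
Fosb, chr7:19310046-19310295, minus strand: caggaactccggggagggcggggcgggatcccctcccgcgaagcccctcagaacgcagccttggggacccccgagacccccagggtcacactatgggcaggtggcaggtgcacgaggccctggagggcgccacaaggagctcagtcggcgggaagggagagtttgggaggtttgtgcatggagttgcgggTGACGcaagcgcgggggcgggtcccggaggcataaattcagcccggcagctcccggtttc
Atf3, chr1:191183334-191183583, minus strand: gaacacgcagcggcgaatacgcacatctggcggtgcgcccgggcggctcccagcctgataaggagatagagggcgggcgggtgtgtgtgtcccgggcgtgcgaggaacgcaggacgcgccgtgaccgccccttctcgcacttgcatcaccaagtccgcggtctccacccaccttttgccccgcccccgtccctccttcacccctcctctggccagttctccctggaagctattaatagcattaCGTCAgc
Egr2, chr10:67537619-67537868, plus strand: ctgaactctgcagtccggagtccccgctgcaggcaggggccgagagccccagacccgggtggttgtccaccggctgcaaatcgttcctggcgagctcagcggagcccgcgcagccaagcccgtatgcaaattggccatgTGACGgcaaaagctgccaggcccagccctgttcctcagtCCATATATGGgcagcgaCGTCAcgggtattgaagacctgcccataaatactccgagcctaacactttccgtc
Dusp1, chr17:26508473-26508722, minus strand: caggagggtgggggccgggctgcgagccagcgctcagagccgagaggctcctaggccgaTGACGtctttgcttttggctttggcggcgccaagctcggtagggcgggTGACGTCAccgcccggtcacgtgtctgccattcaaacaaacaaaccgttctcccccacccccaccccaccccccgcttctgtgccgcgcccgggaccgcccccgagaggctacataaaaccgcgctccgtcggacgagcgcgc
RefSeq windows of 300 bases, 250 before to 50 after a start, were at hand for 8 of the 10 genes. Egr2 had several, and the first that holds both the serum response element and TGACG is shown. No motif was found in the windows of Jun and Ier3. A gene was counted if any of its windows held the motif, while the shares of all promoters are per window. The shorter TGACG was present in windows of 6 of these 8 genes (Fos, Fosb, Junb, Atf3, Egr2 and Dusp1), against 20.8% of all 32851 windows. The full TGACGTCA, which contains it, was found only in Dusp1 among the 8, where it began 143 bases upstream of the start, against 1.79% of all windows. The serum response element was found in windows of Egr2, where the one in the stretch above began 72 bases upstream, against 1.63% of all windows. TATAAA was found in Fos, 33 bases upstream, and in Junb, against 13.6% of all windows, and TGANTCA in none of the 8, against 7.81% of all windows. A match of letters is a description and shows no binding. Sites outside these windows were not searched, so an absence holds for the windows alone.

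The genes are compact. Of the 10, 8 had a genomic span and 8 a total exon length below the medians of the 14358 protein-coding genes at 1 CPM or more in at least 4 libraries, which were 25023.5 and 4466.5 bases (GENCODE M21, mm10). Ier3 was the shortest, with a span of 1240 bases on chromosome 17 (35821684 to 35822923, plus strand). Jun (chromosome 4, 95049034 to 95052222) and Ier2 (chromosome 8, 84661331 to 84662852), both on the minus strand, have a single exon each. Dusp1 was the longest as annotated, with 56539 bases on chromosome 17 (26505590 to 26562128, minus strand). Genes on the opposite strand overlap Jun (Junos), Junb (Prdx2), Atf3 (Gm24748) and Dusp1 (Ergic1 and Gm8225), and without a stated strand setting their reads cannot be told apart there.

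All 10 genes were low at E16, highest at P0 and intermediate or low again at P3, in CKO and in control lungs. Fos, which encodes the founding FOS subunit of AP-1, had 2.33, 1.85, 1.49 and 2.08 CPM in E16 CKO lungs, against 2.67, 3.16, 2.66 and 2.36 CPM in E16 control lungs. At P0 it had 94.0, 190.4, 67.9 and 46.2 CPM in CKO lungs, against 209, 126, 84.5 and 44.9 CPM in control lungs. By P3 the values were 13.7, 18.2, 17.0 and 33.1 CPM in CKO lungs, against 15.4, 21.1, 35.5 and 31.6 CPM in control lungs. The stages did not overlap for Fos in either genotype. The genotypes overlapped at P0 and P3, and at E16 the highest CKO value, 2.33 CPM, lay just below the lowest control value, 2.36 CPM.

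Fosb, which encodes a FOS relative that pairs with JUN proteins, was close to the limit of detection at E16, with 4 to 14 counts per CKO library and 7 to 20 counts per control library. At P0 it had 11.6, 313, 11.8 and 4.76 CPM in CKO lungs, against 142, 8.36, 6.11 and 2.19 CPM in control lungs. At P3 the range was 1.35 to 3.46 CPM in CKO lungs, against 1.57 to 2.55 CPM in control lungs. One P0 library of each genotype, CKO replicate 2 and control replicate 1, stood far above the other 3 of its group.

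Jun had the smallest proportional swing of the AP-1 genes. It had 32.7, 41.2, 48.9 and 46.3 CPM in E16 CKO lungs, against 49.8, 41.9, 42.6 and 40.5 CPM in E16 control lungs. Its P0 values were 126, 248, 91.4 and 108 CPM in CKO lungs, against 368, 186, 91.1 and 114 CPM in control lungs. P3 values were 87.0, 63.5, 53.7 and 67.7 CPM in CKO lungs, against 81.4, 85.0, 77.2 and 87.4 CPM in control lungs. All P0 libraries lay above all E16 libraries, and 3 of 4 P3 CKO lungs lay below all 4 P3 control lungs.

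Junb, a JUN relative that often opposes JUN, ranged from 0.356 to 1.15 CPM in E16 CKO lungs, against 0.807 to 1.89 CPM in E16 control lungs. P0 lungs had 9.09, 31.7, 5.16 and 6.66 CPM in CKO lungs, against 33.5, 21.1, 2.68 and 5.19 CPM in control lungs. At P3 it had 4.03, 1.85, 1.93 and 1.64 CPM in CKO lungs, against 4.60, 1.82, 1.52 and 2.28 CPM in control lungs. Its P3 and P0 control groups overlapped, with 2.68 CPM in P0 control replicate 3 and 4.60 CPM in P3 control replicate 1.

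Atf3 had 3.47, 3.05, 3.71 and 2.79 CPM in E16 CKO lungs, against 2.54, 3.09, 2.25 and 2.16 CPM in E16 control lungs. Its P0 values were 26.1, 367, 54.9 and 29.6 CPM in CKO lungs, against 174, 47.5, 22.0 and 18.5 CPM in control lungs. Values at P3 lay between 9.37 and 17.9 CPM in CKO lungs, against 10.7 to 15.4 CPM in control lungs. The same 2 P0 libraries that led for Fosb led for Atf3.

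Egr1, which lies on chromosome 18 (34859823 to 34864984, plus strand), had 12.1, 16.4, 15.3 and 17.4 CPM in E16 CKO lungs, against 11.7, 17.3, 13.0 and 10.6 CPM in E16 control lungs. At P0 it had 152, 480.0, 78.7 and 80.4 CPM in CKO lungs, against 169, 67.4, 88.1 and 68.3 CPM in control lungs. P3 lungs had 29.6, 27.9, 58.5 and 52.4 CPM in CKO, against 41.8, 48.5, 54.2 and 42.1 CPM in control. Each P0 group had all of its libraries above all E16 and all P3 libraries of its genotype.

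Egr2, the related factor known from hindbrain and Schwann cells, was almost absent at E16, with 7 to 9 counts per CKO library and 4 to 10 counts per control library. It had 5.10, 16.8, 2.97 and 4.42 CPM in P0 CKO lungs, against 8.20, 2.97, 3.19 and 3.48 CPM in P0 control lungs. At P3 it had 3.53, 2.44, 3.52 and 2.78 CPM in CKO lungs, against 3.78, 2.77, 1.94 and 2.62 CPM in control lungs. The P0 and P3 groups overlapped in both genotypes, and both were above E16.

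Dusp1, the phosphatase of the group, had 16.5, 16.3, 19.6 and 22.3 CPM in E16 CKO lungs, against 20.6, 23.5, 21.0 and 22.1 CPM in E16 control lungs. P0 values were 225, 328, 159.6 and 163 CPM in CKO lungs, against 565, 303, 226 and 229 CPM in control lungs. At P3 it had 121, 108, 142 and 169 CPM in CKO lungs, against 134, 246, 203 and 174 CPM in control lungs. It stayed high after birth, since every P3 library lay above every E16 library and the P3 groups overlapped the P0 groups.

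Ier3 ranged from 3.79 to 4.03 CPM in E16 CKO lungs, against 3.57 to 5.34 CPM in E16 control lungs. It had 34.9, 54.1, 17.3 and 32.7 CPM in P0 CKO lungs, against 47.2, 24.4, 24.6 and 28.4 CPM in P0 control lungs, and 11.5 to 19.5 CPM in P3 CKO lungs, against 14.3 to 20.1 CPM in P3 control lungs. Ier2 had 2.75 to 8.16 CPM in E16 CKO lungs, against 3.66 to 8.07 CPM in E16 control lungs, and 18, 33.7, 8.96 and 11.5 CPM in P0 CKO lungs, against 51.1, 35.2, 7.64 and 12.7 CPM in P0 control lungs. For Ier2 the P0 and E16 control lungs overlapped, the single case among the 10 genes, and at P3 it had 5.27 to 8.23 CPM in CKO lungs, against 5.11 to 11 CPM in control lungs.

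**Figure D1:**
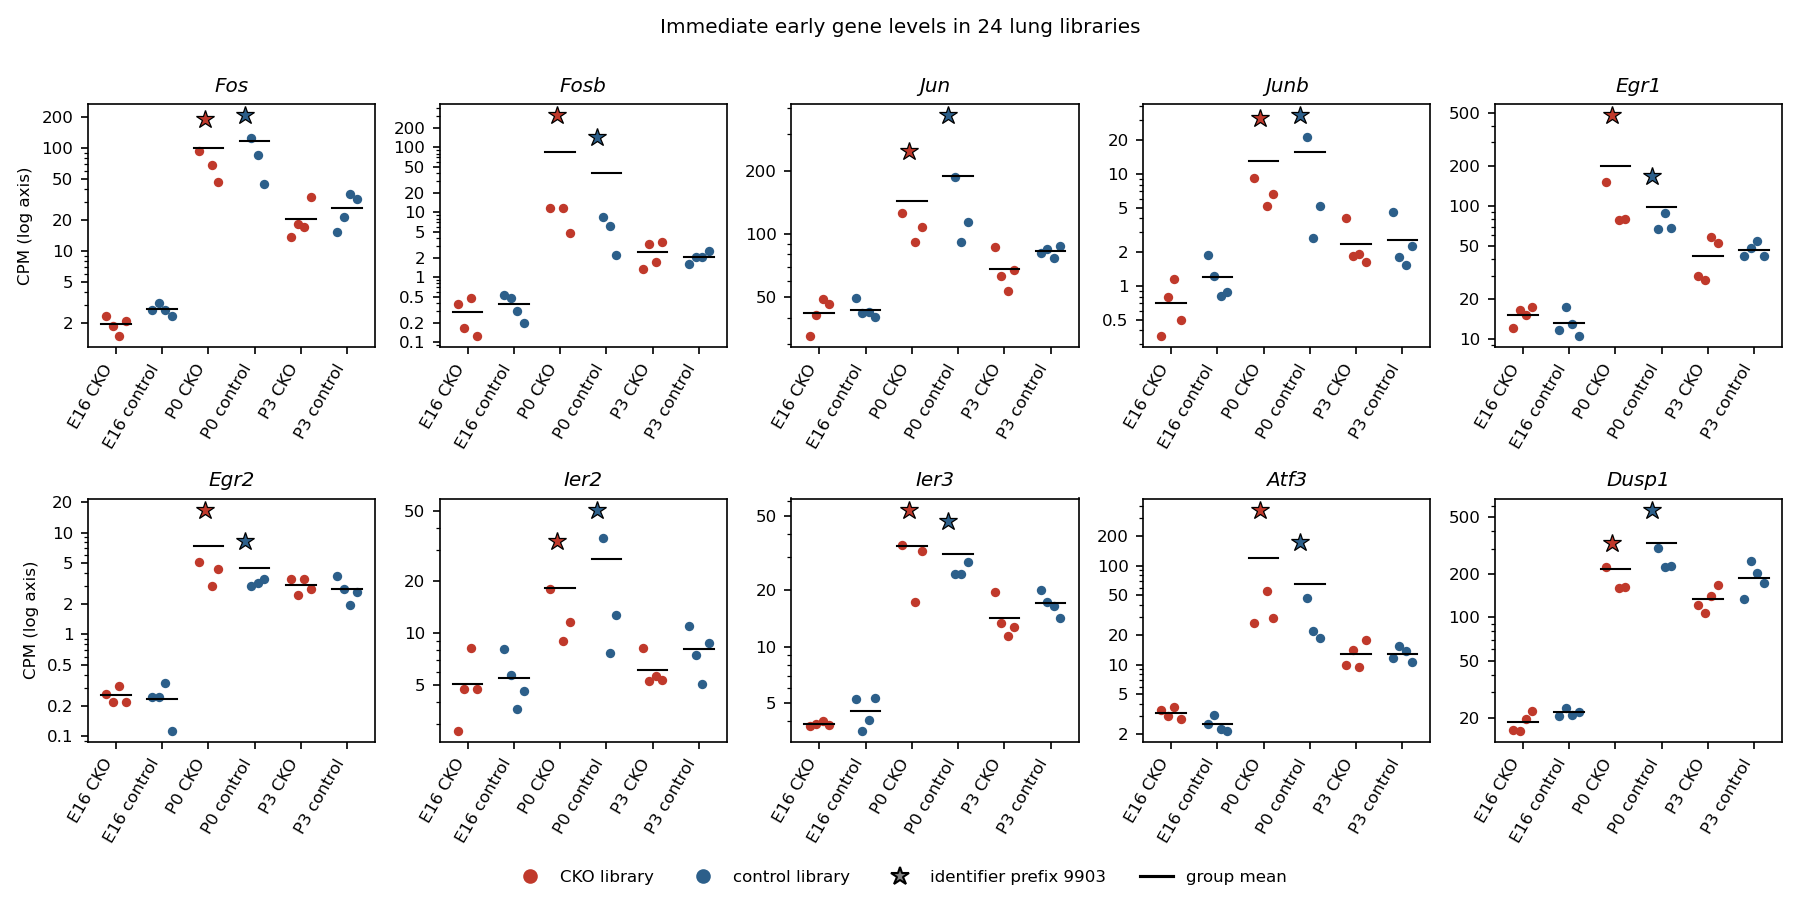
Level of each of the 10 immediate early genes (CPM, log axis) in each library of the 6 stage and genotype groups, CKO in red and control in blue, with the group mean as a line and both P0 libraries of identifier prefix 9903 as stars. Every gene is lowest at E16 and highest at P0, and the stars are the highest points of their P0 groups in every panel.

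Per kilobase of exon, Jun was the most abundant of the 10 at E16, with 13.3 ± 2.24 CPM per kb in CKO and 13.7 ± 1.3 CPM per kb in control lungs (SD, n = 4 each, as for all values per kb). Dusp1 led at P0, with 66.1 ± 23.8 CPM per kb in CKO and 100 ± 48.3 CPM per kb in control lungs, and at P3, with 40.8 ± 8.0 CPM per kb in CKO and 57.1 ± 14.3 CPM per kb in control lungs. Next in P0 CKO lungs came Atf3 at 55.7 ± 77.0, Jun at 44.8 ± 22.3, Egr1 at 44.2 ± 42.6 and Fos at 42.3 ± 27 CPM per kb. The order of these 5 in P0 CKO lungs is within their spread. Fosb was the least abundant at E16, with 0.0466 ± 0.0280 CPM per kb in CKO and 0.0609 ± 0.0253 CPM per kb in control lungs, and Egr2 at P0, with 2.16 ± 1.88 CPM per kb in CKO and 1.31 ± 0.737 CPM per kb in control lungs.

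The comparison of P0 with E16 asks how the genes differ across birth. All 10 genes rose at P0, in CKO lungs (24.7% of the 18415 genes tested were called higher) and in control lungs (25.3% called higher), by the quasi-likelihood test of edgeR, with p adjusted over all genes by the Benjamini-Hochberg method and calls at 0.05. All P0 libraries lay above all E16 libraries for 10 of 10 genes in CKO lungs and for 9 of 10 in control lungs, against 17.6% of all genes in CKO lungs and 20.1% in control lungs (16.7% and 20.9% had all P0 libraries below in CKO and control lungs). The median log2 fold change of the 10 was 3.96 in CKO and 3.80 in control lungs, against 0.06 and 0.05 over all genes in CKO and control lungs. Neutrophil markers were higher too, with 10 of 10 called in both genotypes by edgeR and a median of 4.25 in CKO and 4.53 in control lungs. Their summed level was 179 to 287 CPM in P0 against 10.3 to 14 CPM in E16 CKO lungs, and 274 to 391 CPM in P0 against 11.4 to 16.8 CPM in E16 control lungs, and all 10 were detected in every library. Of the heart and skeletal muscle markers 9 of 11 were called higher in CKO and 6 of 11 in control lungs, and of the lung markers 10 of 15 were called higher and 2 lower in each genotype. The part of these markers in the rise of the early genes was not tested.

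Fos rose by 5.68 ± 0.51 in CKO lungs (log2 fold change ± SE, edgeR adjusted p = 2.1e-08) and by 5.42 ± 0.50 in control lungs (edgeR adjusted p = 3.4e-08). Fosb rose by 8.21 ± 1.56 in CKO lungs (edgeR adjusted p = 0.00024) and by 6.69 ± 1.46 in control lungs (edgeR adjusted p = 0.00085). These folds of Fosb rest on very few counts at E16 and on 1 high library per group at P0. Atf3 rose by 5.20 ± 0.82 in CKO and by 4.70 ± 0.81 in control lungs, and Egr2 by 4.85 ± 0.51 in CKO and by 4.24 ± 0.51 in control lungs. Junb rose by 4.23 ± 0.74 in CKO and by 3.69 ± 0.71 in control lungs. Egr1 rose by 3.69 ± 0.48 in CKO and by 2.90 ± 0.46 in control lungs. The phosphatase Dusp1 rose by 3.55 ± 0.29 in CKO and by 3.92 ± 0.29 in control lungs, and Ier3 by 3.16 ± 0.28 in CKO and by 2.77 ± 0.28 in control lungs. The smallest rises were those of Ier2, by 1.82 ± 0.49 in CKO and 2.26 ± 0.49 in control lungs, and of Jun, by 1.76 ± 0.33 in CKO and 2.12 ± 0.33 in control lungs. The largest of these 20 adjusted p-values was 0.0044, for Ier2 in CKO lungs by edgeR.

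None of the 10 differed in this rise between genotypes by edgeR, with a smallest unadjusted p of 0.212 for Egr1 and adjusted p of 1.00 throughout, and 0% of all genes were called. No identifier prefix is shared between stages, so that stage and whatever the prefix marks cannot be told apart. Without the 2 P0 libraries of prefix 9903, described below, all 10 genes were still called higher in both genotypes by edgeR. The share of all genes called in that fit is not given here. The rises then ran from 1.29 for Ier2 to 5.12 for Fos in CKO lungs and from 1.53 for Jun to 4.92 for Fos in control lungs, and Fosb rose by 4.98 in CKO and by 3.80 in control lungs.

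From P0 to P3 all 10 genes had negative log2 fold changes in both genotypes, and 8 of 10 fell in each by edgeR (6.9% of all genes were called lower in CKO lungs and 6.34% in control lungs, and 6.15% higher in CKO lungs and 4.97% in control lungs). In CKO lungs the 2 not called were Egr2, at -1.25 ± 0.42 (edgeR adjusted p = 0.053), and Dusp1, at -0.70 ± 0.26 (edgeR adjusted p = 0.076). In control lungs they were Egr1, at -1.07 ± 0.43 (edgeR adjusted p = 0.11), and Egr2, at -0.68 ± 0.42 (edgeR adjusted p = 0.30). All P3 libraries lay below all P0 libraries for 7 genes in CKO lungs, all but Egr2, Ier3 and Dusp1, and for 5 in control lungs, namely Fos, Jun, Egr1, Ier3 and Atf3, against 7.58% of all genes in CKO and 7.25% in control lungs (7.83% and 8.97% had all P3 libraries above in CKO and control lungs). The median over the 10 was -1.89 in CKO and -1.46 in control lungs, against -0.04 and -0.03 over all genes in CKO and control lungs. None of the 10 neutrophil markers was called between P3 and P0 in either genotype by edgeR. At an unadjusted p under 0.05 there were 0 in CKO and 2 in control lungs, beside 5625 and 5245 of all 18415 genes in CKO and control lungs. The summed level of the neutrophil markers at P3 was 208 to 243 CPM in CKO and 248 to 445 CPM in control lungs.

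Fosb had the largest fall, by 5.12 ± 1.29 in CKO and by 4.27 ± 1.25 in control lungs. Atf3 fell by 3.22 ± 0.74 in CKO and by 2.35 ± 0.72 in control lungs, Junb by 2.48 ± 0.67 in CKO and by 2.61 ± 0.67 in control lungs, and Fos by 2.28 ± 0.42 in CKO and by 2.16 ± 0.42 in control lungs. Egr1 fell by 2.23 ± 0.45 in CKO lungs. Ier2 fell by 1.56 ± 0.48 in CKO and by 1.72 ± 0.48 in control lungs, Ier3 by 1.28 ± 0.26 in CKO and by 0.86 ± 0.26 in control lungs, and Jun by 1.08 ± 0.32 in CKO and by 1.20 ± 0.32 in control lungs. Dusp1 fell by 0.80 ± 0.26 in control lungs, with an edgeR adjusted p of 0.048, but its call was lost in 25 of 35 alternatives, with values of -0.96 to -0.39 and adjusted p up to 0.27.

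The falls differed in how far their calls held, while every value stayed negative in both genotypes under each alternative run. The fall of Fos was called in all 35 alternatives in both genotypes, with values of -2.59 to -1.75 in CKO and -2.43 to -1.68 in control lungs. In CKO lungs Egr1, Atf3 and Ier3 kept their calls in 34 of 35. The other calls, and those of Atf3 and Ier3 in control lungs, were lost in more of them. Without prefix 9903, edgeR called 6 of 10 lower in CKO lungs and 4 of 10 in control lungs, and Fosb was then at -1.93 in CKO and -1.40 in control lungs. In CKO lungs the count of 8 dropped to 4 without P0 CKO replicate 2 or P3 CKO replicate 3 and to 5 without P3 CKO replicate 2 or 4. In control lungs it dropped to 1 without P0 control replicate 1 or P3 control replicate 2 or 3, to 2 without P3 control replicate 4, to 3 without P0 control replicate 2 and to 5 without P3 control replicate 1. A fit of only the 8 libraries compared called 1 of the 10 genes lower in each genotype, Fos in both. The count of all genes called changed over the alternatives too, as given in the last paragraph. The changes in count in this paragraph therefore cannot be read as particular to these genes.

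**Figure D2:**
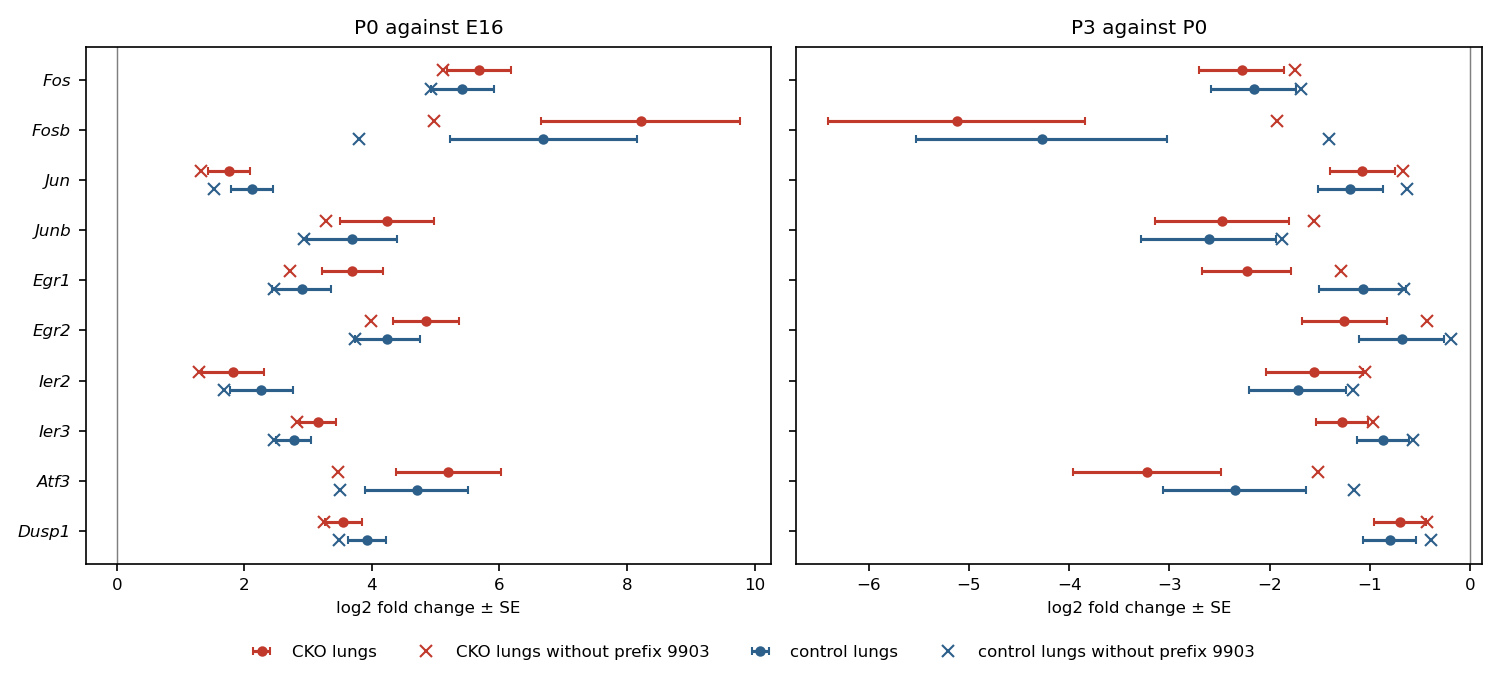
Log2 fold change ± SE of each gene at P0 against E16 (left) and at P3 against P0 (right), CKO in red and control in blue, from the fit of 24 libraries, with crosses for the value without the P0 libraries of identifier prefix 9903. All points lie above 0 on the left and below 0 on the right, and the crosses lie nearer to 0, most of all for Fosb and Atf3.

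Within P0, the lungs differed in the level of the whole set. The number before the hyphen in the identifier label, called its prefix here, joins 1 CKO and 1 control lung in each of 4 pairs at P0, and the labels do not say what it marks. Both libraries of prefix 9903, CKO replicate 2 and control replicate 1, lay above the other 6 P0 libraries for 9 of the 10 genes, all but Ier2, against 11.9% of all genes tested. For the other pairs that share was 11.6% for prefix 9605, 4.88% for 1022 and 1.79% for 9468 over all genes. With prefix 9903 on top for 9 of the 10 genes, only Ier2 could have another pair on top, and it had none. Each of the 2 libraries was the highest of its own group for 10 of 10 genes. The mean deviation of the 10 genes from their group mean was 1.56 in CKO replicate 2 and 1.41 in control replicate 1 on the log2 scale, and -0.78 to 0.08 in the other 6 P0 libraries.

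In P0 lungs of prefix 9903, Fosb was 4.90 higher on the log2 scale than in the other P0 lungs, the mean of both genotypes, Atf3 was 3.02 higher and Junb was 2.17 higher. Egr1, Egr2 and Ier2 were 1.72, 1.57 and 1.56 higher, and Fos and Jun were 1.45 and 1.37 higher. Dusp1, at 1.01, and Ier3, at 0.92, differed least. These pairs were singled out after their values were seen, so the differences are given with no test. Of the 47 other early response genes tested, 45 were also higher in the prefix 9903 lungs, with a median of 1.21 against -0.02 over all genes. Nr4a3, an orphan nuclear receptor, was 3.98 higher and Egr3 3.02 higher. The kinases and factors upstream were near the rest, with 11 of 19 higher and a median of 0.18, and heat shock genes had 7 of 10 higher and a median of 0.50.

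Markers of other tissues had negative medians in the mean of these libraries against the other P0 lungs. Of neuronal markers 0 of 8 were higher, with a median of -1.09, and of heart and skeletal muscle markers 2 of 11, with a median of -0.61. Of thymus markers 0 of 9 were higher, with a median of -2.20. The other P0 lungs include the 2 high in thymus markers, at 2189 and 2740 CPM, and the rest had 52.3 to 60.5 CPM. Summed neuronal markers were the lowest of the 8 P0 lungs, at 25.0 CPM in CKO replicate 2 and 29.9 CPM in control replicate 1, against 53.3 to 121 CPM in the others. Muscle markers summed to 541 CPM in CKO replicate 2, the lowest of the 8, and to 1308 CPM in control replicate 1. The latter was above CKO replicate 4 at 973 CPM and control replicates 2 and 4 at 994 and 888 CPM. Totals were 31.04 M counts in CKO replicate 2 and 32.72 M in control replicate 1. Thymus markers summed to 57.0 and 57.4 CPM, cartilage markers to 27.9 and 68.1 CPM, and lung markers to 15862 and 18088 CPM, in CKO replicate 2 and control replicate 1. Only CKO replicate 3, at 372 CPM, had a higher cartilage sum at P0 than control replicate 1. Neutrophil markers summed to 287 CPM in CKO replicate 2, the highest of P0 CKO lungs at 179 to 287 CPM, and to 301 CPM in control replicate 1, within the 274 to 391 CPM of P0 control lungs. TMM factors were the lowest of the 8 P0 libraries, 0.901 in CKO replicate 2 and 0.891 in control replicate 1. Their part in the level of the early genes was not tested.

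**Figure D3:**
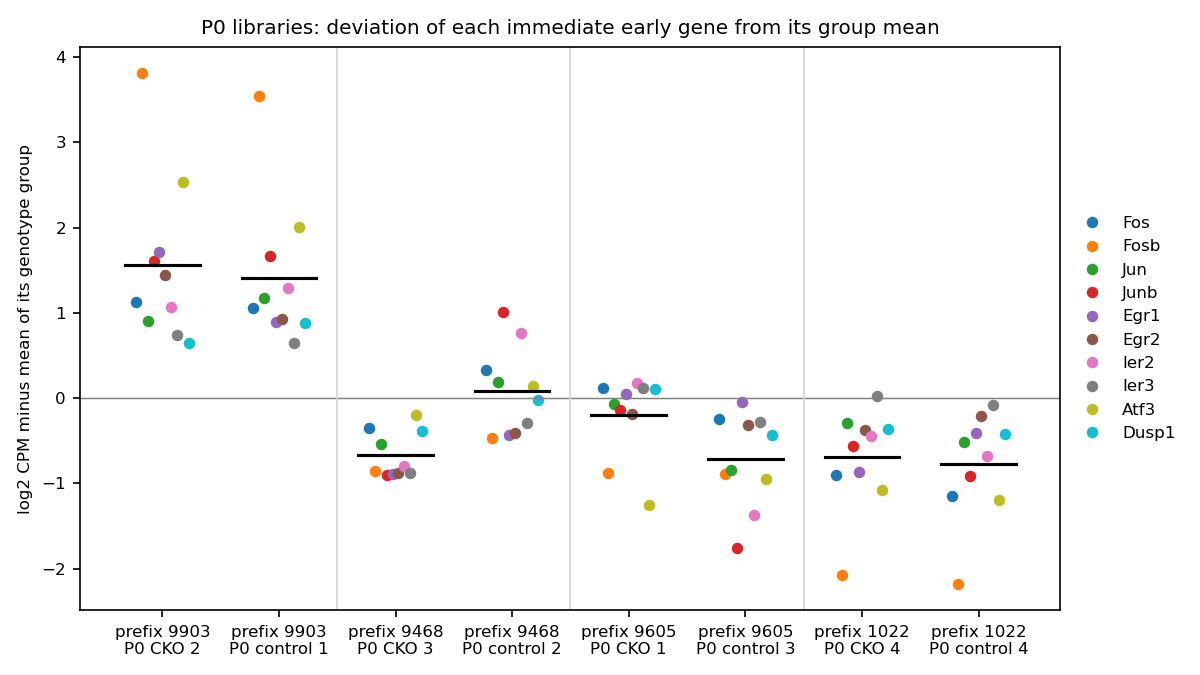
Deviation of each gene from the mean of its genotype group at P0 (log2 CPM) in each of the 8 P0 libraries, paired by identifier prefix, with the CKO library left of the control library in each pair and a line for the mean over the 10 genes. Both prefix 9903 libraries have all 10 genes above 0, and Fosb and Atf3 are the farthest.

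The spread between lungs of a group was measured by edgeR's biological coefficient of variation (BCV), the part of the relative spread that exceeds counting error. At P0 it was 1.45 for Fosb, at percentile 99.4 of all genes tested, 0.979 for Atf3, at percentile 98.2, and 0.787 for Junb, at percentile 96.7. Ier3, at 0.363, and Dusp1, at 0.346, were near the P0 median of 0.314. At E16 and P3 the same genes varied less, and so did the median gene, at 0.171 at E16 and 0.162 at P3. Fosb had a BCV of 0.411 at E16, at percentile 93.6, and of 0.314 at P3, at percentile 89.4. Junb was at percentile 92.6 at E16 and 95.1 at P3, and Atf3 at 62.6 at E16 and 71.3 at P3. Jun had 0.136 at E16 and 0.140 at P3, both below those medians.

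**Figure D4:**
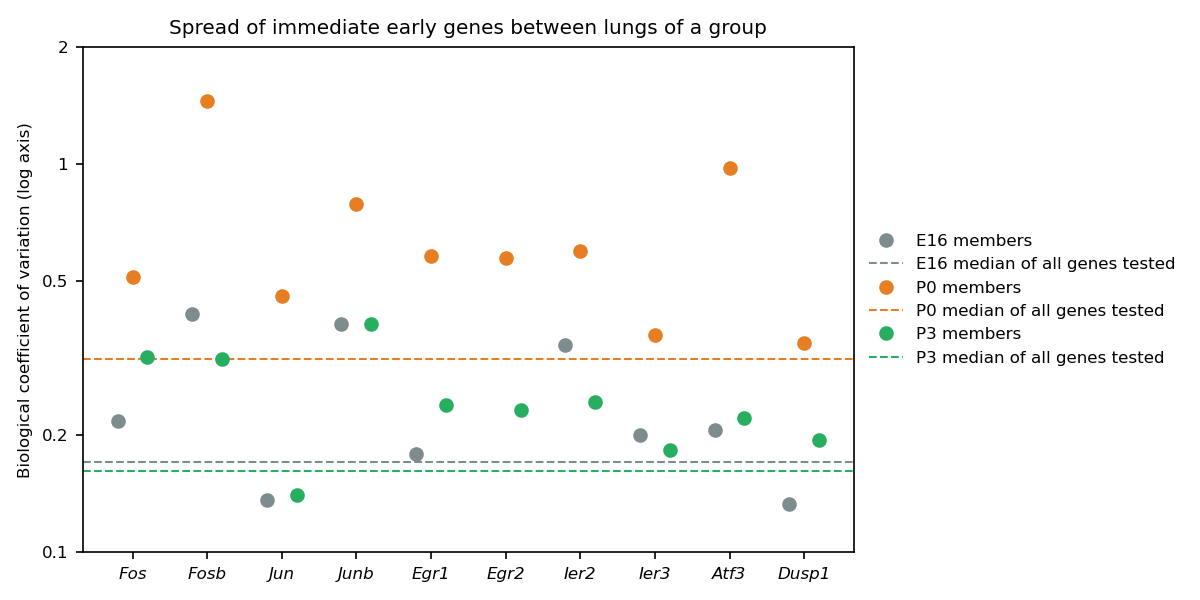
Biological coefficient of variation (log axis) of each gene between lungs of a group at E16, P0 and P3, with dashed lines for the median of all genes tested at each stage. All 10 genes lie above the P0 median at P0, with Fosb at 1.45, and Jun lies below the median at E16 and P3.

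The comparison of CKO with control lungs asks whether loss of Sin3a in the mesenchyme moves these genes. By edgeR, 0 of the 9 genes tested were called at E16 (0.0181% of all genes were called), 0 of 10 at P0 (0.0407%, with 0.0116% higher and 0.0291% lower) and 0 of 10 at P3 (0.0117%), and Egr2 did not pass the filter on low counts at E16. At an unadjusted p under 0.05 there was 1 gene at E16, 0 at P0 and 2 at P3. Over all genes there were 1749 of 16606 at E16, 1107 of 17198 at P0 and 2634 of 17113 at P3. DESeq2 and limma-voom also called 0 of the 10 genes at each stage. The shares of all genes called above are those of edgeR, and those of the other tools are not given here. With CPM scaled within the 8 libraries of a stage, the genotype groups overlapped for every member tested. On the scale over 24 libraries used for the levels above, Fos at E16 did not overlap, by a small margin (2.33 against 2.36 CPM). Scaled within the stage, 4.29% of all genes at E16 had every CKO library above and 2.28% below every control library. Those shares were 2.6% above and 2% below at P0, and 3.59% above and 3.53% below at P3.

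At E16, Fos was at -0.46 ± 0.20 (unadjusted p = 0.041, edgeR adjusted p = 0.44) and lower in CKO in each of the 3 prefixes. Junb was at -0.78 ± 0.40 (edgeR adjusted p = 0.54) and Atf3 at 0.39 ± 0.18 (edgeR adjusted p = 0.49). At P0 the fit held no prefix term, so its errors include the spread between prefixes. They were wide, with Fosb at 1.06 ± 1.74, Atf3 at 0.84 ± 1.10, Egr1 at 0.98 ± 0.61 and Egr2 at 0.69 ± 0.57, all with edgeR adjusted p of 0.90 or more. Fosb, Atf3 and Egr1 were higher in the CKO library of each of the 4 prefixes at P0, by 0.47 to 1.14 for Fosb, 0.21 to 1.08 for Atf3 and 0.22 to 1.51 for Egr1 on the log2 scale. Egr2 was level in prefix 9468, at 2.97 CPM in both lungs, and higher in the CKO library of the other prefixes, by up to 0.99. Dusp1 was lower in all 4. The share of all genes with such agreement across prefixes was not counted at E16 or P0. Without P0 CKO replicate 2 the sign turned to -2.10 for Fosb, -0.84 for Atf3 and -0.13 for Egr2, which leaves prefix 9903 in the control group alone. At P3, Jun was at -0.29 ± 0.13 (unadjusted p = 0.044, edgeR adjusted p = 0.31). Leaving out P3 CKO replicate 1 made it the 1 gene called lower at P3, at -0.43 (edgeR adjusted p = 0.022).

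Dusp1 had the smallest p of the 10 when genotype was averaged over stages. It was at -0.21 ± 0.11 at E16, -0.61 ± 0.34 at P0 and -0.49 ± 0.19 at P3, with edgeR adjusted p of 0.55, 0.87 and 0.27 at the 3 stages in that order. Within prefixes its mean was lower in CKO lungs in 3 of 3 at E16, in 4 of 4 at P0 and in 2 of 2 at P3, by 0.01 to 0.92 on the log2 scale. How many of all genes agree in sign in this way was not counted. The average over stages was -0.44 ± 0.15 (unadjusted p = 0.0068, edgeR adjusted p = 0.068), and none of the 10 genes passed, against 8.38% of all genes called (5.38% higher and 3% lower). With the identifier prefix as a block Dusp1 was at -0.41 with an edgeR adjusted p of 0.014, with DESeq2 at -0.44 with an adjusted p of 0.034, and scaled by library size alone at -0.43 with an edgeR adjusted p of 0.046. It was also called without E16 CKO replicate 4, without P0 CKO replicate 2 and without P0 control replicate 3, and its adjusted p over all alternatives ranged from 0.014 to 0.13. The adjusted p was 0.024 without prefix 9903. Fosb, at 0.52 ± 0.71, was called higher with the prefix block alone, at 0.53 (edgeR adjusted p = 0.041).

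**Figure D5:**
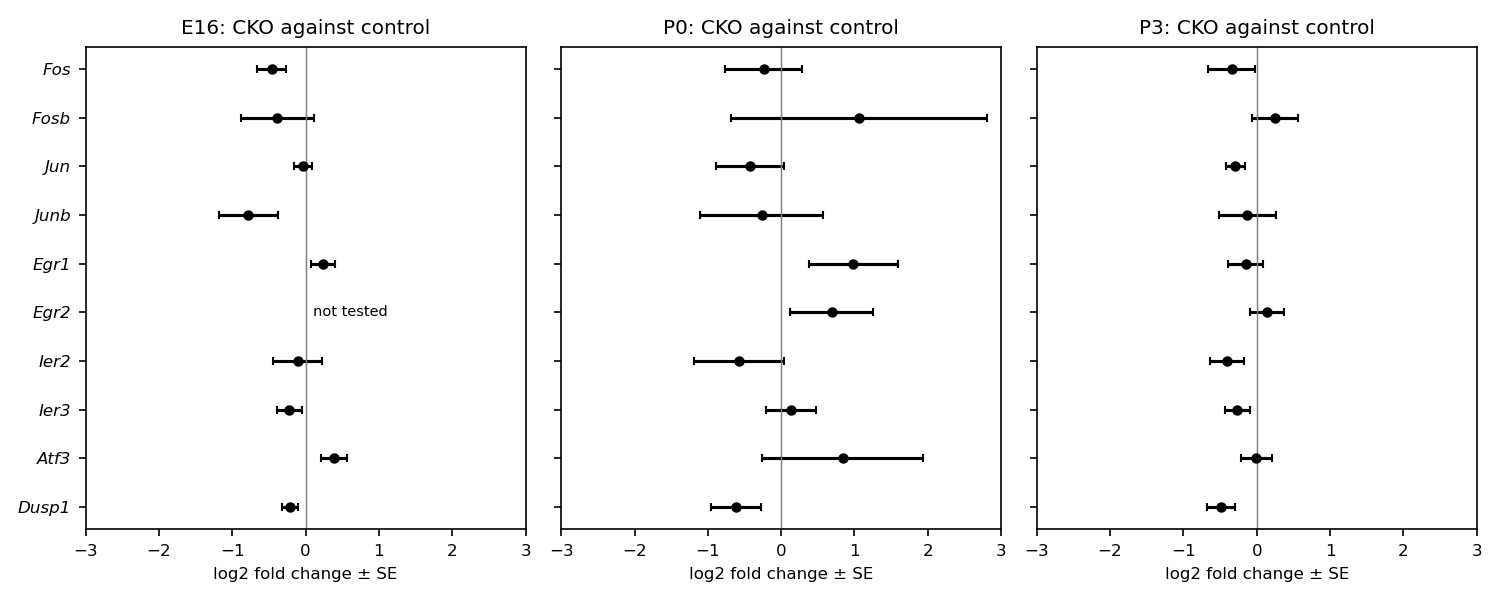
Log2 fold change ± SE of CKO against control lungs for each gene at E16, P0 and P3, from the fit of the 8 libraries of each stage, with Egr2 not tested at E16. The error bars are widest at P0, and Dusp1 is the 1 gene whose point and bar lie below 0 at all 3 stages.

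The wider early response moved with these genes across birth. Of the 48 other immediate early and delayed early genes listed, 47 were tested, and at P0 against E16 35 rose and 0 fell in CKO lungs, and 33 rose and 0 fell in control lungs, by edgeR. Over all genes, 24.7% were called higher and 20.6% lower in CKO lungs, and 25.3% higher and 22.3% lower in control lungs. The median log2 fold change of the 47 was 1.37 in CKO and 1.36 in control lungs. Ctgf, a matricellular growth factor, rose by 3.94 ± 0.27 in CKO, at 495 ± 225 CPM in P0 against 32.4 ± 3.04 CPM in E16 lungs (SD, n = 4 each). In control lungs it rose by 3.73 ± 0.27. Klf4, a zinc finger factor, rose by 3.27 ± 0.31 in CKO and by 3.51 ± 0.32 in control lungs. Socs3, an inhibitor of cytokine signalling, rose by 2.79 ± 0.26 in CKO lungs, and Klf2, a factor of endothelial cells, by 3.31 ± 0.31 in control lungs. Without prefix 9903, 28 rose and 1 fell in CKO lungs, and 32 rose and 3 fell in control lungs. The shares of all genes above are from the main fit, and those without prefix 9903 are not given here.

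At P3 against P0, 25 of the 47 fell and 0 rose in CKO lungs, and 12 fell and 0 rose in control lungs. Over all genes, 6.9% were called lower and 6.15% higher in CKO lungs, and 6.34% lower and 4.97% higher in control lungs. Socs3 fell by 1.87 ± 0.25 in CKO and by 1.27 ± 0.24 in control lungs, and Zfp36, which promotes decay of short-lived messages, by 1.81 ± 0.39 in CKO and by 1.83 ± 0.39 in control lungs. Dusp5, a phosphatase of ERK, fell by 1.52 ± 0.29 in CKO lungs, and Gadd45g, a stress gene, fell by 2.81 ± 0.61 in control lungs. The 25 became 18 and the 12 became 7 without prefix 9903, and the 12 became 26 without both P0 libraries high in thymus markers. With single libraries left out the counts ran from 7 to 32 in CKO lungs and from 3 to 24 in control lungs. The lowest counts came without P3 CKO replicate 2 or 3, and without P0 control replicate 1. In a fit of only the 8 libraries compared they were 5 in CKO and 2 in control lungs. The count of all genes called also differed between alternatives, as given in the last paragraph. These changes in count, also that from 12 to 26, therefore cannot be read as particular to the early genes.

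Between genotypes 0 of these genes was called at any stage by edgeR. At an unadjusted p under 0.05 there were 0 at E16, 0 at P0 and 7 of 46 at P3, beside 2634 of all 17113 genes at P3. DESeq2 called 1 lower at P3, and its share of all genes called is not given here. The smallest p at P3 were those of Klf2, at -0.61 (edgeR adjusted p = 0.20), and Crem, at -0.36 (edgeR adjusted p = 0.24), and 38 of 46 genes had negative values there, with a median of -0.20 against -0.01 over all genes. In the same comparison all 10 neutrophil markers had negative values, 9 of them at an unadjusted p under 0.05 and with a median of -0.95, as had 13 of 15 lung markers, 6 of them at an unadjusted p under 0.05 and with a median of -0.26, though none was called by edgeR. Their part in the values of the early genes was not tested. Without P3 CKO replicate 1, 3 were called lower at P3, in a fit whose share of all genes called is not given here. Averaged over stages Crem, which encodes cAMP-responsive activators and repressors, was the 1 called of 47, lower at -0.30 ± 0.09 (edgeR adjusted p = 0.032), against 3% of all genes called lower. Crem was at 10.3 ± 0.585 CPM in CKO and 11.5 ± 0.729 CPM in control lungs at E16, 14 ± 3.53 CPM in CKO and 18.3 ± 2.32 CPM in control lungs at P0, and 14.7 ± 1.39 CPM in CKO and 18.8 ± 2.55 CPM in control lungs at P3 (SD, n = 4 each). With single libraries left out the count for the list ran from 0 to 2, and it was 0 without P0 CKO replicate 3, P0 control replicate 1 or 4, P3 CKO replicate 2 or P3 control replicate 2, 3 or 4.

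Of the 19 kinases and transcription factors upstream, 4 rose and 2 fell at P0 against E16 in CKO lungs, and 5 rose and 3 fell in control lungs, near the shares of all genes called, which were 24.7% higher and 20.6% lower in CKO lungs and 25.3% higher and 22.3% lower in control lungs. Elk4, a partner of serum response factor, rose by 0.78 ± 0.15 in CKO and by 0.80 ± 0.15 in control lungs, and Mapk3, which encodes ERK1, by 0.49 ± 0.14 in CKO and by 0.46 ± 0.14 in control lungs. Srf itself rose by 0.85 ± 0.28 in CKO lungs. Creb1 fell by 0.70 ± 0.14 in CKO and by 0.48 ± 0.14 in control lungs, and Rps6ka5, a kinase of CREB and histone H3, by 0.41 ± 0.16 in CKO and by 0.49 ± 0.16 in control lungs. At P3 against P0, Ets2 fell by 0.79 ± 0.22 in CKO and by 0.88 ± 0.22 in control lungs. Srf fell by 0.85 ± 0.28 and Creb1 rose by 0.60 ± 0.14 in CKO lungs, and Rps6ka1 fell by 0.56 ± 0.18 in control lungs. Between genotypes 0 were called at each stage, and averaged over stages Rps6ka5 was the 1 called, higher at 0.33 ± 0.09 (edgeR adjusted p = 0.023). This 1 of 19 is near the 5.38% of all genes called higher. None of the list was called higher without P3 CKO replicate 2 or 4. With single libraries left out, 0 to 3 of the 19 fell at P3 against P0 in each genotype.

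The 11 partners of AP-1 include 4 genes of the early response list, Jund, Fosl1, Fosl2 and Maff. At P0 against E16, 7 rose and 1, Atf2, fell in both genotypes. Of all genes 24.7% rose and 20.6% fell in CKO lungs, and 25.3% rose and 22.3% fell in control lungs. Jund rose by 3.20 ± 0.60 in CKO and by 3.54 ± 0.60 in control lungs, Mafk by 2.16 ± 0.34 in CKO and by 2.35 ± 0.34 in control lungs, and Batf, an AP-1 factor of immune cells, by 2.53 ± 0.30 in CKO and by 2.64 ± 0.30 in control lungs. At P3 against P0, where 6.9% of all genes fell in CKO and 6.34% in control lungs, 4 of the 11 fell in CKO lungs, Mafk by 1.25 ± 0.33 and Maff by 1.80 ± 0.51 among them. In control lungs 1 of the 11 fell, Jund by 2.15 ± 0.56, which is near the share of all genes. Without prefix 9903 the counts that fell were 2 in CKO and 0 in control lungs, and with single libraries left out they ran from 0 to 5 in both. Shares of all genes in those fits are not given beside these counts. None was called between genotypes by edgeR, where 1 had an unadjusted p under 0.05 at E16, 0 at P0 and 1 at P3, and DESeq2 called 0.

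Of the 10 heat shock genes, 2 rose and 5 fell at P0 against E16 in CKO lungs, and 4 rose and 5 fell in control lungs, beside the same shares of all genes. Their values had 5 positive and 5 negative signs in CKO lungs and 4 positive and 6 negative signs in control lungs. Hspb1, a small chaperone, rose by 2.29 ± 0.30 in CKO and by 2.05 ± 0.30 in control lungs, while Hsph1 fell by 1.13 ± 0.17 in both and Hspd1, a mitochondrial chaperonin, by 0.90 ± 0.16 in CKO and by 1.11 ± 0.16 in control lungs. At P3 against P0, 6.9% of all genes fell in CKO and 6.34% in control lungs. Of the heat shock genes 2 fell in CKO lungs, Hspb1 by 1.79 ± 0.30 and Dnajb1 by 0.61 ± 0.17, and 3 fell in control lungs, Hspb1 by 1.92 ± 0.30, Hspa1a by 2.66 ± 0.72 and Bag3 by 0.68 ± 0.20. Hspa1a and Hspa1b are near-identical copies, so their split counts are uncertain. DESeq2 called 2 between genotypes at E16, 0 at P0 and 1 at P3, and its share of all genes called is not given here. By edgeR 0 were called at any single stage. At an unadjusted p under 0.05 there were 6 at E16, 2 at P0 and 4 at P3. Over all genes there were 1749 of 16606 at E16, 1107 of 17198 at P0 and 2634 of 17113 at P3. Averaged over stages 4 were called higher in CKO lungs, against 5.38% of all genes, with Hsph1 at 0.58 ± 0.09 (edgeR adjusted p = 0.00042), Hspe1 at 0.66 ± 0.12 (edgeR adjusted p = 0.0011) and Hspa8 at 0.26 ± 0.06 (edgeR adjusted p = 0.0093).

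Outside these lists, the 10 genes most like the mean of the 10 early genes were ranked by Pearson's r of log2 CPM centred on each group, over 24 libraries and 12912 candidates. They were Sde2 (r = 0.95, Spearman's rho = 0.75), Slc2a1 (r = 0.94, rho = 0.77), Elmsan1 (r = 0.94, rho = 0.67), Arid5a (r = 0.93, rho = 0.69), Frat2 (r = 0.93, rho = 0.74), Zbtb21 (r = 0.92, rho = 0.61), Ppp1r15a (r = 0.92, rho = 0.89), Epha2 (r = 0.92, rho = 0.80), Noct (r = 0.92, rho = 0.66) and Hspb8 (r = 0.91, rho = 0.55). Since they were picked for this likeness from so many, no p is given. Without the 2 libraries of prefix 9903 r was 0.69 to 0.82. The libraries also share depth and cell makeup. Slc2a1 encodes a glucose transporter, and Ppp1r15a encodes a stress-induced phosphatase subunit, GADD34.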

How the data were processed

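Whole-lung RNA from 24 lungs was sequenced after RNeasy Plus Mini extraction and Illumina TruSeq library preparation, per the labels' protocols. The deposited table held expected counts per gene from the authors, whole as deposited. The submitters' processing notes name STAR 2.5.3a, RSEM 1.3.0, edgeR and mm10, while the sources used here do not give the annotation, strand setting or filters.

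Genotype was tested at each stage in edgeR 4.0.16 (R 4.3.3) on the 8 libraries of that stage, with filterByExpr (minimum count 10), TMM scaling and the robust quasi-likelihood test. Stage and the difference between genotypes were tested in 1 fit of 24 libraries, and the average genotype effect in a fit of stage and genotype, with Benjamini-Hochberg adjustment over all genes and calls at 0.05. P-values measure the spread between lungs titled as biological replicates. All 10 members are named, and from each other list up to 3 genes per direction with the smallest p among those called, or up to 2 where none was. Outside the lists, the 10 genes with the highest correlation with the members are named. The members and lists were chosen with earlier results of these data known. The fits were tested on simulated data. No pair of libraries of the same group was alike within sampling noise, and pairs across groups were not compared in this way. Alternatives used limma 3.58.1 and DESeq2 1.42.0, other scaling and filters, blocks and left-out libraries. Leaving out prefix 9903 and fitting only the 8 libraries compared were chosen after seeing the data. Deviations used log2(CPM + 0.5).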

Additional observations from a re-analysis of the deposited data

Results flagged for a closer look

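On the log2(CPM + 0.5) scale, 3 of 60 groups of 4 lungs had a single lung whose gap to the nearest other lung took up more of the range of its group than Dixon's critical value allows, which chance gives in about 1 group in 20. Junb was at 4.03 CPM in P3 CKO replicate 1, against 1.64 to 1.93 CPM in the other P3 CKO lungs. Ier2 was at 8.23 CPM in the same lung, against 5.27 to 5.68 CPM in the other 3. Egr2 was at 8.20 CPM in P0 control replicate 1, a lung of identifier prefix 9903, against 2.97 to 3.48 CPM in the other P0 control lungs. The gaps on the log2 scale were 0.832 of the range for Junb, 0.834 for Ier2 and 0.850 for Egr2, and on the CPM scale 0.879 for Junb, 0.861 for Ier2 and 0.902 for Egr2.

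On the CPM scale, chosen as an alternative after seeing the data, 8 of the 60 groups passed, these 3 among them. The others were all at P0 and led by a lung of prefix 9903. In P0 CKO replicate 2 the gap was 0.977 of the range for Fosb at 313 CPM, 0.916 for Atf3 at 367 CPM, 0.852 for Junb at 31.7 CPM and 0.846 for Egr2 at 16.8 CPM. In P0 control replicate 1 it was 0.956 for Fosb at 142 CPM. On the log2 scale these 5 gaps were 0.696 to 0.793.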

How the results depend on the processing

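The rise at P0 was called for 9 or 10 of the 10 genes in both genotypes under every alternative run, and the absence of genotype calls at E16 and P0 held under each. For the average genotype effect the count of members called moved to 1 with library size only, DESeq2 or without prefix 9903, to 2 with the identifier prefix block, and between 0 and 1 with single libraries left out, as it did at P3. For P3 against P0, the 8 in CKO lungs became 5 with limma-voom, 1 with only the 8 libraries compared and 4 to 10 with single libraries left out. The 8 in control lungs became 4 with no filter, 2 with limma-voom, 5 with the replicate block, 4 without prefix 9903, 1 with only the 8 libraries compared and 1 to 9 with single libraries left out. The cause was not tested. Same-numbered lungs had correlated deviations of -0.45 to 0.66, so the numbers were not taken as pairs. The 0.66 was that of P0 replicate 4, whose lungs share prefix 1022. Lungs of a shared prefix at P0 had 0.56 for 9605, 0.61 for 9903, 0.66 for 1022 and 0.02 for 9468. At E16 the values were -0.16 for 829, 0.11 for 1023 and 0.43 for 919. At P3 there were only 2 prefixes, so centring on the group makes their values the same, and this 1 value was 0.09. The main fits held no prefix term.

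Signs turned for genotype values near 0. Atf3 at P3 was 0.00098 with median-of-ratios scaling, 0.0083 with no filter, 0.0033 with 1 CPM in 4 libraries, 0.00095 with DESeq2 and 0.023 with the identifier prefix block, and Junb at P0 was 0.028 with limma-voom and 0.033 with the replicate block. With single libraries left out, E16 values ran from -0.12 to 0.055 for Jun and -0.43 to 0.11 for Ier2. P0 values ran from -2.10 to 3.91 for Fosb, -0.13 to 1.16 for Egr2, -0.17 to 0.40 for Ier3, -0.84 to 2.00 for Atf3, -0.76 to 0.20 for Fos, -0.83 to 0.11 for Jun and -1.18 to 0.42 for Junb. P3 values ran from -0.21 to 0.13 for Atf3, -0.34 to 0.0019 for Egr1, -0.50 to 0.32 for Junb and -0.0023 to 0.32 for Egr2, and averages from -0.74 to 1.36 for Fosb and -0.14 to 0.75 for Atf3. The identifier prefix block could not be fitted for stage contrasts, and the P3 minus E16 difference was not run without P0 libraries. Counts of 4 to 20 per library limit Fosb and Egr2 at E16.

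Over all genes, the count called at E16 was 3 (3 to 299 over the alternatives), at P0 7 (2 to 190), at P3 2 (0 to 1625) and for the average 1544 (981 to 2871). For P0 against E16 it was 8352 in CKO (5942 to 8829) and 8778 in control lungs (7400 to 9471), and for P3 against P0 2403 in CKO (641 to 3414) and 2083 in control lungs (740 to 4064). Counts of the members and lists under an alternative stand without the share of all genes in that fit. A change in them therefore cannot be read as particular to those genes.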
